A study of Mus musculus with 68 samples.

Results

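The 8 genes described here encode secreted axon guidance proteins and their receptors: the Slit proteins Slit1, Slit2 and Slit3, the Slit receptors Robo1 and Robo2, netrin-1 (Ntn1), and the netrin receptors Unc5c and Dcc. They were taken by symbol from the array annotation. Each of the 8 symbols was carried by 1 transcript cluster, the probe set that stands for a transcript on these arrays, so all 8 were measured among 19938 genes. All 8 clusters were bright, with means over the 68 arrays above those of 81.1% (Ntn1) to 98.8% (Slit2) of genes. Levels are log2 values on the scale of the deposited table, and because each cluster has its own probes, levels were compared between arrays and never between genes.

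The arrays held RNA from motor neurons that were made from mouse embryonic stem cells (strain label C57/BL6) in embryoid bodies, patterned from day 2 with a Smoothened agonist plus retinoic acid, dissociated on day 5 and sorted on magnetic beads for a motor neuron surface reporter, CD2 or CD14. Doxycycline then induced 1 or 2 transgenes, and the cells were kept on matrigel for 30 hours. In 26 lines, 18 sorted for CD2 and 8 for CD14, the induced gene was a candidate regulator, and each was set against YFP induced in cells of the same reporter (4 arrays for each reporter). The CD2 lines were Arid5b, Btbd3, Chd5, DNLhx3 (titled "Lhx3 (DN)"), Hey1, Hoxa5, Hoxc6, Klf5, Klf6, Lhx3, Notch1 ICD (10), Notch1 ICD (30), Pou3f1, Sfmbt2, Tox, Vwc2, Zbtb7c and Zic1. The CD14 lines were NERT (10), NERT (30), Pou3f1, Flag-tagged Pou3f1, and Pou3f1 together with DNLhx3, Hoxa5, Hoxc6 or Lhx3. Pou3f1 in CD2 cells had 4 arrays and every other line 2. Reference cells without a named factor were the H4 parental line (CD2, 3 arrays) and the E3 parental line (CD14, 1 array), with 2 further E3 arrays marked as induced that formed a batch of their own. For Notch intracellular domain genes the protocol states that the transgene was induced in some experiments only for the last 10 hours, and the numbers in the line names are used as the labels give them. The names H4, E3 and NERT are not spelled out in the labels, and the labels leave unsaid whether a line's arrays stem from separate cultures, so the p-values reflect array-to-array spread that may be technical.

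In the spinal cord, floor plate cells at the ventral midline and motor neurons themselves secrete Slits, which bind Robo receptors and mostly repel axons. Netrin-1, made by floor plate and ventral progenitors, attracts axons through Dcc and repels them when Unc5 receptors are present, alone or with Dcc. Motor neurons use both systems to keep their cell bodies in the cord and their axons away from the midline, and the LIM homeodomain factors Isl1 and Lhx3 direct much of that program.

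Promoter sequence is given for genes on which the results below turn: Slit2 and Unc5c, which fell together, and the receptors Robo1 and Robo2. RefSeq windows of 300 bases (GRCm38.p6, 250 before to 50 after a transcript start) were held for 5 of the 8 genes, Slit2, Slit3, Robo1, Robo2 and Unc5c. They are written 5′ to 3′ on the gene's strand. Capitals mark matches, on either strand, to the TATA box TATAAA, the POU octamer ATGCAAAT, the homeodomain core TAATTA or the RBPJ (Notch effector) motif TGGGAA.
Slit2, chr5:47982905-47983204, + strand: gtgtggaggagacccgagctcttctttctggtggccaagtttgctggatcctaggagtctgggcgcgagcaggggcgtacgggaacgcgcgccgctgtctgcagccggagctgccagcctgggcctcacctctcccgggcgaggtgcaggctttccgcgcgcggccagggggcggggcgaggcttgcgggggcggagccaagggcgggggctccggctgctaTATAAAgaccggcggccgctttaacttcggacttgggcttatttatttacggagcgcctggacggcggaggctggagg
Unc5c, chr3:141465314-141465613, + strand: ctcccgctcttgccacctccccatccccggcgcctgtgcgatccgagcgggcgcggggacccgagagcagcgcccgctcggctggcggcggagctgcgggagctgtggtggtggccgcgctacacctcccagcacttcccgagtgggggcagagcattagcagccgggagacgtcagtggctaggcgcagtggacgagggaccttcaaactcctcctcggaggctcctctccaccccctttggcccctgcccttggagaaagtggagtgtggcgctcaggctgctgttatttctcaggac
Robo1, chr16:72662899-72663198, + strand: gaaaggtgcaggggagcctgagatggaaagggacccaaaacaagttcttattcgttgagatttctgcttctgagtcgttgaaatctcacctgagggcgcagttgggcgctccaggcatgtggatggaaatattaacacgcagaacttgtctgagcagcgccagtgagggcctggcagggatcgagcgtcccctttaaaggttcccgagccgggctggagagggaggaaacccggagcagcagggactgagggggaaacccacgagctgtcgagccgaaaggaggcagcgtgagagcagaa
Robo2, chr16:75447244-75447543, - strand: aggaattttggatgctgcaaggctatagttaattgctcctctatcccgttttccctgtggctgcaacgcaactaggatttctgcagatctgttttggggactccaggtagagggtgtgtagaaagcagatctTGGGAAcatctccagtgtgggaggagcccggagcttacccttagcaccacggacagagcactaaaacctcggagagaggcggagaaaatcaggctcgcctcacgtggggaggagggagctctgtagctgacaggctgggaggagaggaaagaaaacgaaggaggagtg
The Slit2 window held 1 TATA box, and the Unc5c and Robo1 windows held no match to these 4 motifs. This Robo2 window held 1 RBPJ motif. It is 1 of 3 Robo2 windows, each at its own transcript start, and the others held no match to these 4 motifs. Among 32851 windows of the same length, TATAAA was in 13.6%, ATGCAAAT in 1.74%, TAATTA in 5.29% and TGGGAA in 25.6%. GC content was 68% in Slit2, 68.3% in Unc5c, 57% in Robo1 and 53.3% in this Robo2 window, where the median over all windows was 52.7%. A match describes these letters and not a bound site.

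Arrays of the same group and batch correlated at 0.987 to 0.998 over all genes (21 pairs), and of the same group in different batches at 0.974 to 0.994 (26 pairs). Each factor's own cluster was read where the results below use it. Lhx3 read 11.38 and 11.03 in Lhx3 arrays and 7.94 and 8.26 in DNLhx3 arrays, against 7.69 to 7.86 in CD2 YFP arrays. Pou3f1 read 9.48 to 10.70 with Pou3f1 in CD2, against 8.39 to 8.69 in YFP, and 8.76 and 9.07 in CD14, against 8.31 to 8.48. Hoxc6 read 9.41 and 9.19 in Hoxc6 arrays, against 6.34 to 7.00 in CD2 YFP arrays. The motor neuron factor Isl1 read 12.46 to 12.97 in the 8 YFP arrays. There was no YFP array in batches 4 and 5 and no CD2 YFP array in batch 6, so lines there are tied to YFP through the fitted batch terms.

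A member was called in a line where limma's test, with terms for group and batch over all 68 arrays and Benjamini-Hochberg adjustment over 19938 genes, gave an adjusted p under 0.05. Over 26 lines and 8 genes, 25 of 208 differences from YFP were called, 9 higher and 16 lower. That was 12% of the member tests, and 2.06% of tests over all genes passed in the same 26 lines. The members were chosen with earlier results of these data known and are all bright. Shares of members and of all genes, here and below, are therefore set side by side without a test. The calls were made in 11 lines. Robo1 was called in 6 lines, always higher. Slit2 and Unc5c were called in the same 4 lines, always lower. Dcc was called in 4 (1 higher, 3 lower), Robo2 in 3 (2 higher, 1 lower), Ntn1 in 2, and Slit1 and Slit3 in 1 each, all lower. In 12 CD2 lines (Arid5b, Btbd3, Chd5, Hey1, Hoxa5, Klf5, Klf6, Sfmbt2, Tox, Vwc2, Zbtb7c and Zic1) no member was called by limma. In those lines 0.132% of all tests passed, and 10 of 96 member tests had an unadjusted p under 0.05 (10.4%, against 8.82% over all genes). In the H4 and E3 parental lines no member was called against YFP, with adjusted p from 0.505 upwards in H4 and 0.9995 for each gene in E3.

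**Figure D1:**
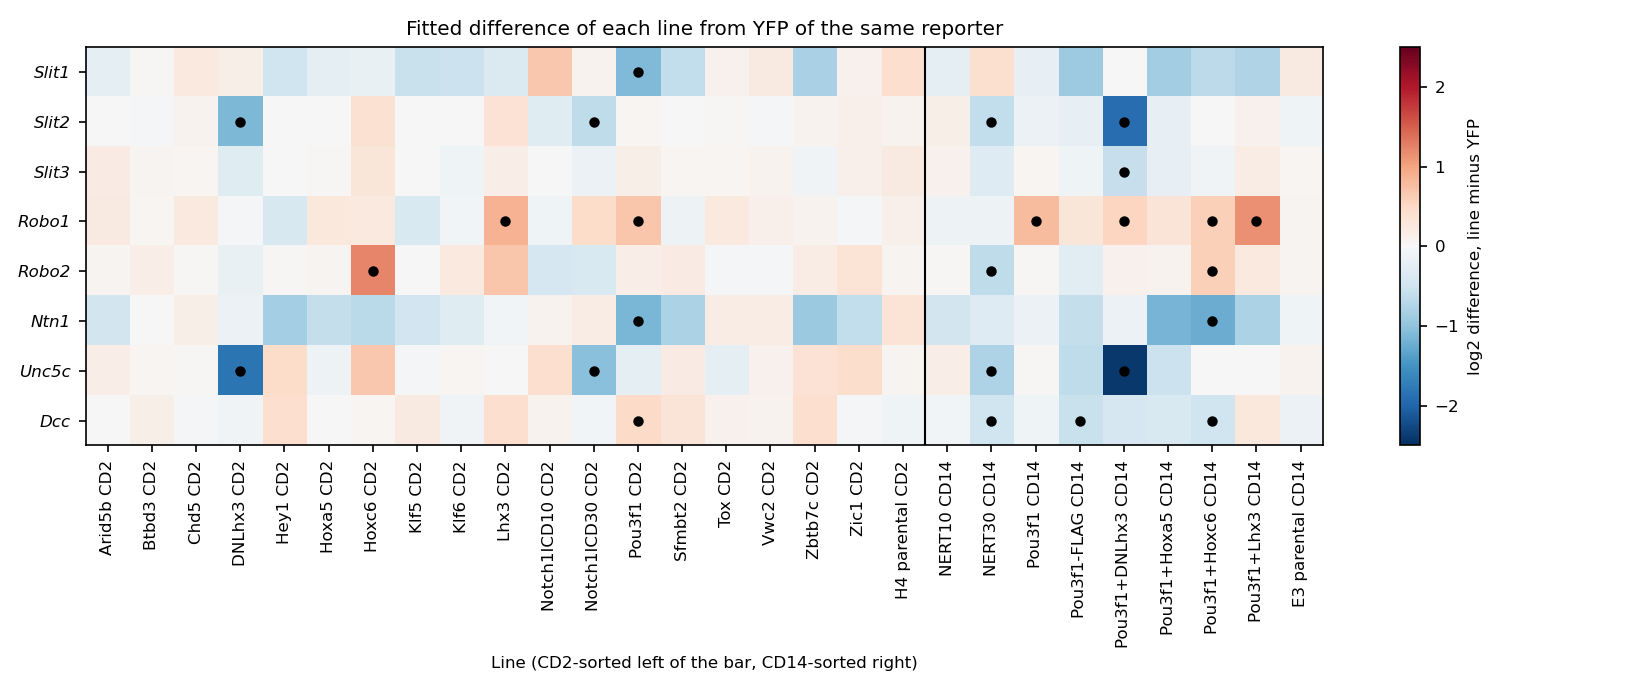
Fitted log2 difference of each member (rows) in each induced or parental line (columns) from YFP of the same reporter, with red higher and blue lower than YFP and a black dot where limma's adjusted p was under 0.05. The darkest cells are Unc5c (-2.41) and Slit2 (-1.90) in Pou3f1+DNLhx3, and Robo1 is the member with the most red dots (6).

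Slit2 and Unc5c fell furthest in the 2 lines with DNLhx3. Slit2, the Slit that motor neurons are best known to make, read 11.71 and 11.73 in the 2 DNLhx3 arrays, against 12.91 and 12.75 in the 2 YFP arrays that share its batch. Unc5c, the receptor through which netrin repels, read 9.74 and 9.31 in DNLhx3 cells, against 11.41 and 11.18 in those YFP cells. Both DNLhx3 arrays lay below all 4 CD2 YFP arrays for both genes. Against all YFP arrays Slit2 was lower by 2.16-fold (-1.11 ± 0.09, log2 ± SE of the fit, limma adjusted p = 5.13e-11), and Unc5c by 3.56-fold (-1.83 ± 0.21, adjusted p = 1.01e-07). These were 2 of 8 members in a comparison where 4.09% of all genes were called, and Unc5c had the eighth deepest fall of 19938 genes. Both calls held under each alternative setting and without any 1 array, where the adjusted p without 1 array reached at most 0.000156. Slit3 was at -0.31 ± 0.12 (adjusted p = 0.185), and the other 5 members were between -0.18 and 0.14.

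Both genes also fell where Pou3f1 was induced beside DNLhx3 in CD14 cells. Slit2 read 10.71 and 11.09 in Pou3f1+DNLhx3 cells, against 12.77 and 12.83 in YFP cells of the same batch. Unc5c read 8.81 and 9.47 in Pou3f1+DNLhx3 cells, against 11.56 and 11.54 in those YFP cells. No CD14 YFP array came near these values, the lowest at 12.76 for Slit2 and 10.94 for Unc5c. Slit2 was lower by 3.73-fold (-1.90 ± 0.10, adjusted p = 1.24e-16) and had the smallest p-value of all 19938 genes. Unc5c was lower by 5.32-fold (-2.41 ± 0.22, adjusted p = 4e-10). Slit3, a Slit of motor neurons and floor plate, read 10.55 and 10.44 in Pou3f1+DNLhx3 cells, against 11.11 and 11.02 in the YFP cells, a fall of 0.57 ± 0.13 on the log2 scale (adjusted p = 0.00591). That call was lost without the batch 6 YFP replicate 1 or Pou3f1+DNLhx3 replicate 2 (adjusted p up to 0.108). Robo1 rose by 0.54 ± 0.16 (adjusted p = 0.0459), a call that ended without any 1 array of either group (up to 0.31) and in 4 settings (no batch terms, a second quantile normalization, the replicate block and without batch 0, 0.0503 to 0.0755), so that 4 of 8 members were called where 4% of all genes were.

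With Pou3f1 alone neither gene was called. Pou3f1 arrays in CD14 cells of the same batch read Slit2 at 12.68 and 12.65 and Unc5c at 11.56 and 11.59, within 0.14 of YFP in the fit. Set directly against Pou3f1 alone, Pou3f1+DNLhx3 was lower in Slit2 by 3.39-fold (-1.76 ± 0.10, adjusted p = 1.57e-15), again the smallest p-value of all genes. It was lower in Unc5c by 5.43-fold (-2.44 ± 0.22, adjusted p = 6.37e-10) and in Slit3 by 1.53-fold (-0.61 ± 0.13, adjusted p = 0.00482). These 3 of 8 members stood beside 2.11% of all genes called. The Slit3 call was lost when either Pou3f1 array or Pou3f1+DNLhx3 replicate 2 was left out (adjusted p up to 0.094).

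In the lines named Lhx3 without DN, neither gene was called. Slit2 read 13.04 and 12.91 in Lhx3 arrays (CD2), against 12.71 to 12.91 in the 4 YFP arrays, and the fit gave 0.36 ± 0.14 (adjusted p = 0.133). With Pou3f1+Lhx3 (CD14) Slit2 read 12.85 and 12.91 and Unc5c 10.99 and 11.06, against 12.76 and 12.78 and 11.13 and 10.94 in the YFP arrays of its batch. Lhx3 over DNLhx3 in CD2 cells was 1.47 ± 0.16 for Slit2, 0.93 ± 0.26 for Robo1 and 1.85 ± 0.36 for Unc5c (adjusted p = 1.09e-07, 0.0373 and 0.00257), 3 of 8 members where 3.77% of all genes were called. Pou3f1+Lhx3 over Pou3f1+DNLhx3 was 2.01 ± 0.14 for Slit2, 0.76 ± 0.19 for Slit3 and 2.40 ± 0.32 for Unc5c (adjusted p = 8.6e-13, 0.0301 and 4.39e-06), again 3 of 8, where 1.23% of all genes were called. In each pair the lines shared no batch, so these values rest on the fitted batch terms. Without the 6 batch 4 arrays described below, the Robo1 and Unc5c differences between Lhx3 and DNLhx3 were no longer called. The Robo1 difference also lost its call with the replicate block (adjusted p = 0.0577), with arrays of the same reporter only (0.152) and without any 1 of 3 arrays, both Lhx3 arrays and DNLhx3 replicate 2 (up to 0.166). The Slit3 difference lost its call when any 1 array of its 2 lines was left out (up to 0.161), and with the replicate block it was 0.48 (0.664).

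**Figure D2:**
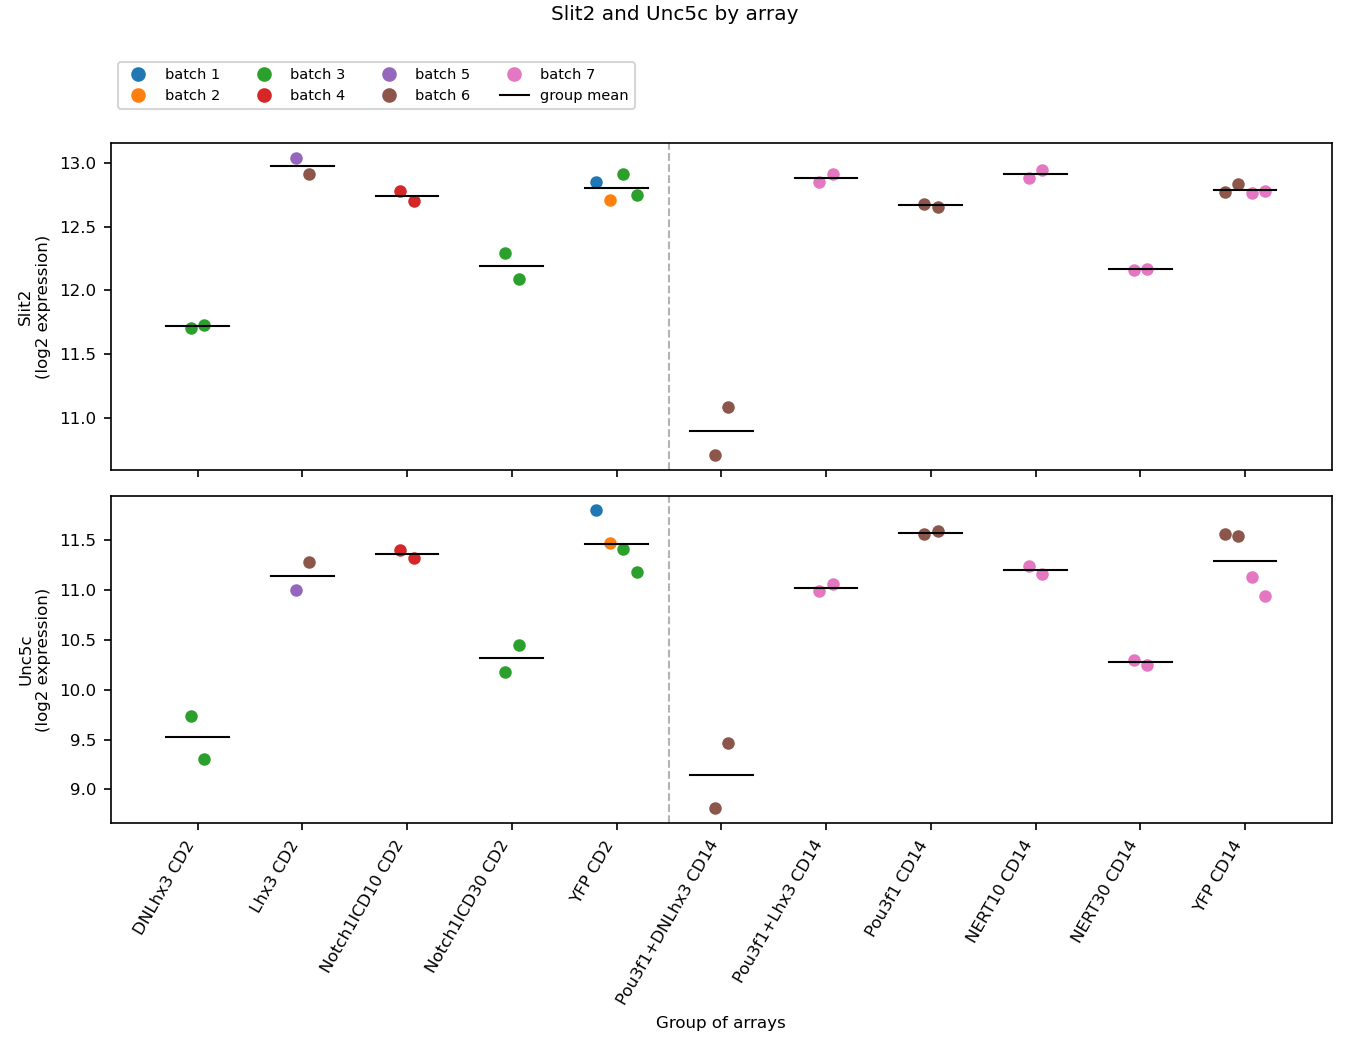
Log2 expression of Slit2 (top) and Unc5c (bottom) in each array (dots, coloured by batch) with group means (bars), for CD2 lines left and CD14 lines right of the dashed line. The DNLhx3 and Pou3f1+DNLhx3 dots lie lowest in both panels, and the Notch1 ICD (30) and NERT (30) dots lie below all YFP dots of their reporter.

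The same pair of genes fell in the lines Notch1 ICD (30) and NERT (30). Slit2 read 12.29 and 12.09 with Notch1 ICD (30), against 12.91 and 12.75 in the batch's YFP arrays, and Unc5c 10.18 and 10.45, against 11.41 and 11.18. Slit2 fell by 0.64 ± 0.09 and Unc5c fell by 1.04 ± 0.21 on the log2 scale (adjusted p = 2.61e-06 and 0.00073), 2 of 8 members where 6.07% of all genes were called. Both calls held without any 1 array, Unc5c with an adjusted p of up to 0.0432. In NERT (30) cells Slit2 read 12.16 and 12.17, against 12.76 and 12.78 in YFP cells of the batch, and Unc5c 10.30 and 10.25, against 11.13 and 10.94. No array of either line overlapped with YFP for these genes. Slit2 fell by 0.61 ± 0.10 (adjusted p = 4.02e-05) with NERT (30), Unc5c fell by 0.76 ± 0.22 (0.0401), Robo2 fell by 0.63 ± 0.18 (0.0378) and Dcc fell by 0.49 ± 0.14 (0.031). These were 4 of 8 members, beside 4.7% of all genes. The Unc5c, Robo2 and Dcc calls were lost when any 1 of the 4 batch 7 arrays of these groups was left out (adjusted p up to 0.331), and the Slit2 call was not (up to 0.00215).

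In the lines numbered 10 neither gene was called. Notch1 ICD (10) read Slit2 at 12.78 and 12.70 and Unc5c at 11.40 and 11.32, and NERT (10) read them at 12.88 and 12.94 and at 11.24 and 11.16, all within or above the range of the YFP arrays of the same reporter except the lower Slit2 value of Notch1 ICD (10). With limma 0 of 8 members were called in either line (2.96% of all genes in Notch1 ICD (10) and 0.416% in NERT (10)). At an unadjusted p under 0.05 there were 2 of 8 in Notch1 ICD (10) (16.5% of all genes) and 0 of 8 in NERT (10) (8.5% of all genes). The 2 were Slit2 at -0.29 ± 0.10 and Robo2 at -0.42 ± 0.19, values that rest on the batch 4 term: Robo2 read 10.66 and 10.60 in Notch1 ICD (10), against 10.11 to 10.63 in YFP, so that its arrays were not below the YFP range. NERT (30) against NERT (10), both in batch 7, was lower in Slit2 by 0.75 ± 0.10 on the log2 scale (-0.75, adjusted p = 1.46e-06), in Robo2 (-0.66 ± 0.18, 0.0293) and in Unc5c (-0.92 ± 0.22, 0.0104), 3 of 8 where 3.78% of all genes were called. Notch1 ICD (30) against Notch1 ICD (10) was lower in Unc5c (-1.47 ± 0.28, adjusted p = 0.000437), while Slit2 was at -0.35 ± 0.12 (0.0827). This was 1 of 8 where 6.41% of all genes were called, the 2 lines shared no batch, and the call was lost without the 6 batch 4 arrays. The NERT Robo2 and Unc5c differences lost their calls when any 1 of the 4 arrays was left out.

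Motor neuron markers moved with the pair in these lines. Of 8 markers (Isl1, Isl2, Mnx1, Lhx3, Lhx4, Chat, Slc18a3 and Slc5a7), 4 fell and Lhx4 rose in DNLhx3, 5 fell in Pou3f1+DNLhx3, 5 in Notch1 ICD (30) and 7 in NERT (30). Chat, the enzyme that makes acetylcholine, fell in each of the 4, by 0.94, 1.38, 0.63 and 0.72 on the log2 scale. The mean of the 8 markers ran from 10.31 to 10.49 in DNLhx3 and from 9.92 to 10.16 in Notch1 ICD (30), against 10.56 to 10.84 in CD2 YFP arrays. It ran from 10.25 to 10.27 in Pou3f1+DNLhx3 and from 10.09 to 10.23 in NERT (30), against 10.81 to 10.96 in CD14 YFP arrays. Isl1, the defining motor neuron factor, read 11.45 to 12.13 in the 4 lines. Of 12 neural progenitor markers, 3 rose in NERT (30) (Hes5, Ccnd1 and Pax6) and 2 rose in Notch1 ICD (30) (Hes5 and Ccnd1, with Nkx2-2 lower), whereas 0 of the 12 were called in DNLhx3 and 1, Vim, fell in Pou3f1+DNLhx3. Some were also called in the lines numbered 10, where neither Slit2 nor Unc5c was. Hes5 rose by 1.74 in NERT (10). In Notch1 ICD (10) Hes5 and Ccnd1 were higher (1.23 and 1.58) and Olig2 lower (-1.55), values that rest on the batch 4 term. Of 8 floor plate genes, 5 fell in NERT (30) (Foxa1, Foxa2, Ferd3l, Shh and Corin, by 0.76 to 1.91 on the log2 scale) and 2 fell in Notch1 ICD (30) (Foxa2 and Ferd3l). Their mean ran from 8.81 to 8.88 in NERT (30), against 9.69 to 10.10 in YFP arrays of the batch, and from 8.76 to 8.90 in Notch1 ICD (30), against 9.05 to 9.65. In the lines with DNLhx3 1 of the 8 was called, Nkx6-1, a factor of ventral progenitors too, which rose by 0.74 in DNLhx3 and 1.26 in Pou3f1+DNLhx3 (adjusted p = 0.0303 and 0.000121). Bulk arrays cannot tell fewer cells of a type from less RNA per cell, and the part of these markers in the Slit2 and Unc5c results was not tested.

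Over the 66 arrays of batches 1 to 7, after the fitted batch terms were taken off, Slit2 and Unc5c varied together (r = 0.878, 0.800 over 45 CD2 arrays and 0.965 over 21 CD14 arrays). For Slit2 the 3 genes with the highest correlation were Nyap2 (0.879), Unc5c and the protocadherin Pcdh7 (0.859). For Unc5c they were Slit2, Pcdh7 (0.858) and the neurofilament gene Nefm (0.823). Slit3 followed the same genes less closely, with Slit2 at 0.711, Pcdh7 at 0.667 and Nyap2 at 0.656. These correlations share their arrays and describe them, with no test.

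Other genes of the pathway, 44 measured of a list of 47, changed beside the pair. In DNLhx3 5 were higher and 2 lower, and in Pou3f1+DNLhx3 7 and 2, where 4.09% and 4% of all genes were called. Unc5d, another repulsive netrin receptor, rose by 1.54 ± 0.19 in DNLhx3 and 2.10 ± 0.21 in Pou3f1+DNLhx3 (adjusted p = 6.2e-07 and 1.64e-09), where Unc5c fell. Unc5b, another receptor of that family, fell by 0.86 ± 0.21 and 1.49 ± 0.22 in the same lines (0.0115 and 1.18e-05). In DNLhx3 the repulsive guidance molecule gene Rgma rose by 0.97 ± 0.18 and Flrt1, which encodes an Unc5-binding membrane protein, fell by 0.65 ± 0.14 (0.000363 and 0.00245). In Pou3f1+DNLhx3 Flrt1 fell by 0.72 ± 0.15 and Srgap2, a GTPase-activating protein that acts behind Robo, rose by 0.72 ± 0.14 (0.00125 and 0.000489).

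In both Notch1 ICD lines and in NERT (30), Unc5b was called higher. In NERT (10) it was not called, though its arrays read 9.94 and 10.01, against 9.20 and 9.29 in YFP arrays of the batch. Unc5b read 11.05 and 10.98 with Notch1 ICD (30), against 9.42 and 9.44 in YFP arrays of the batch, and 10.67 and 10.72 with NERT (30), against 9.20 and 9.29. It rose by 1.42 ± 0.21 in Notch1 ICD (30) and 1.45 ± 0.22 in NERT (30) (adjusted p = 4.79e-06 and 1.83e-05). In Notch1 ICD (10) it read 9.77 and 10.00, against 9.30 to 9.44 in CD2 YFP arrays, means of 9.88 and 9.38. The fitted difference there, 1.79 ± 0.24 (4.47e-06), rests on the batch 4 term, since 6 other arrays of that batch read Unc5b at 7.47 to 7.89. Dscaml1, another gene of the list, rose by 1.29 ± 0.17 and 1.09 ± 0.18 in Notch1 ICD (30) and NERT (30). The proteoglycan gene Sdc3 rose by 0.87 ± 0.12 and 0.62 ± 0.13 in the same lines. Counts over the 44 were 4 higher and 2 lower with Notch1 ICD (30), 3 and 1 with NERT (30), 5 and 0 with Notch1 ICD (10), and 0 in NERT (10). Of all genes 6.07%, 4.7%, 2.96% and 0.416% were called in these lines. Each Notch1 ICD (10) value rests on the batch 4 term. Flrt2, for instance, had means of 8.59 there and 8.20 in YFP, where the fit gave 0.98.

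Robo1, a receptor that lets axons respond to Slits, was higher with Pou3f1. In CD2 cells it read 12.37, 12.39, 12.44 and 12.43 with Pou3f1, against 11.36, 11.44, 11.39 and 11.36 in the 4 YFP arrays. In CD14 cells it read 11.90 and 11.98 with Pou3f1, against 11.13 and 11.15 in YFP arrays of the batch and 11.07 and 11.01 in the other 2. The groups did not overlap in either reporter. Robo1 rose by 0.69 ± 0.13 in CD2 (adjusted p = 0.00121) and by 0.80 ± 0.16 in CD14 (0.0109), folds of 1.62 and 1.74. The CD14 effect minus the CD2 effect was 0.11 ± 0.21 (adjusted p = 0.945). Against YFP arrays of the same batch the order was the reverse, with differences of 0.95 to 1.01 in CD2 and 0.76 to 0.84 in CD14. The fitted CD2 value also takes in batch 4 arrays, which had no YFP array beside them, and lay below its same-batch differences. In CD2 4 of 8 members were called with Pou3f1 (2.09% of all genes) and in CD14 1 of 8 (0.306%). The CD14 call was lost without any 1 of the 4 batch 6 arrays of Pou3f1 and YFP (adjusted p up to 0.229), and the CD2 call without the batch 1 Pou3f1 array (0.0534).

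The rise was seen in the combined lines as well. Robo1 read 12.23 and 12.13 with Pou3f1+Lhx3, against 11.07 and 11.01 in YFP arrays of its batch, and rose 2.2-fold (1.14 ± 0.16, adjusted p = 6.25e-06), the 1 member of 8 called where 3.94% of all genes were. This call held in each setting and without any 1 array. Robo1 read 11.68 and 11.81 with Pou3f1+Hoxc6 and 11.64 and 11.73 with Pou3f1+DNLhx3, against 11.13 and 11.15 in YFP, and rose by 0.60 ± 0.16 and 0.54 ± 0.16 (adjusted p = 0.0126 and 0.0459), the Pou3f1+DNLhx3 call with the losses given above. The Pou3f1+Hoxc6 call was lost without any 1 of the 4 batch 6 arrays of the line and YFP (up to 0.144). With Pou3f1+Hoxa5 it read 11.48 and 11.45 and with Flag-tagged Pou3f1 11.43 and 11.46, and the fit gave 0.32 ± 0.16 and 0.30 ± 0.16 (0.278 and 0.382), though these 2 passed in batch 6 arrays fitted alone (0.0139 and 0.0258). All 14 arrays of Pou3f1 lines that had a YFP array of the same reporter and batch read Robo1 above every such YFP array.

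Lhx3 without Pou3f1 also stood high. Robo1 read 12.20 and 12.03 in the 2 Lhx3 arrays, above the 4 CD2 YFP arrays, and rose by 0.88 ± 0.23 (adjusted p = 0.0277), 1 of 8 members where 3.81% of all genes were called. That call was lost in 4 settings and without either Lhx3 array or the batch 2 YFP array (adjusted p up to 0.185), and neither Lhx3 array had a YFP array of its reporter in its batch. Notch1 ICD (30) read Robo1 at 11.83 and 11.61, against 11.39 and 11.36, and was at 0.45 ± 0.15 (0.0671). In 6 of the 9 batch 4 arrays, from the Arid5b, Chd5, Hoxa5, Pou3f1 (2 arrays) and H4 parental lines, Robo1 read 12.23 to 12.44 whatever the line, and in the same lines outside batch 4 it read 11.31 to 11.64 apart from Pou3f1. These 6 arrays also read Hoxa5 high, between 12.14 and 12.75, against 9.06 to 9.97 in CD2 YFP arrays, although only 1 of the 6 came from the Hoxa5 line. The Pou3f1 call in CD2 held without them (adjusted p = 1.99e-06), and within batches 1 and 2 Robo1 was higher by 1.01 and 0.95.

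**Figure D3:**
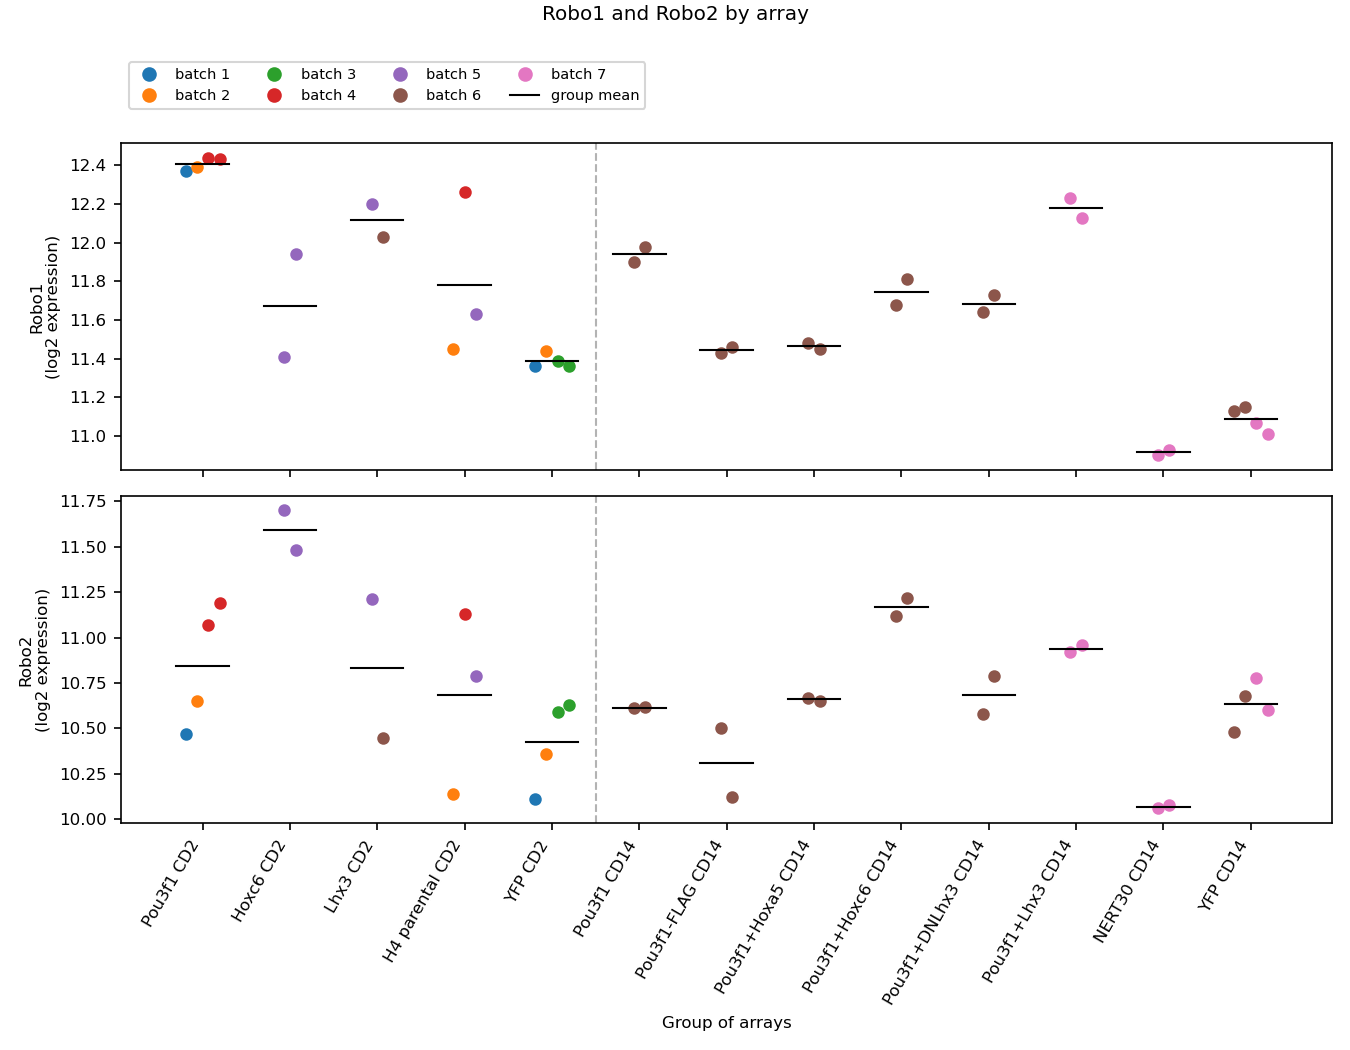
Log2 expression of Robo1 (top) and Robo2 (bottom) in each array (dots, coloured by batch) with group means (bars), CD2 lines left and CD14 lines right of the dashed line. Every dot of a Pou3f1 line lies above the YFP dots of its reporter for Robo1, and the red batch 4 dot of the H4 parental line lies just under the Pou3f1 dots, at 12.26.

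The genes most like Robo1 over the 66 arrays were Ptprd, a receptor phosphatase of synapses and axons (r = 0.836), Inpp4b (0.786) and Pde4b (0.764). Among the 44 pathway genes, 4 rose and 0 fell with Pou3f1 in CD2 (2.09% of all genes called) and 2 and 0 in CD14 (0.306%). Flrt2, which encodes an Unc5 ligand, rose by 1.55 ± 0.20 in CD2 and 1.17 ± 0.25 in CD14 (adjusted p = 2.61e-06 and 0.0187). Unc5d rose by 0.93 ± 0.16 and 0.98 ± 0.21 (0.000624 and 0.0191). Ntng1, a netrin-G anchored to the membrane, rose by 0.91 ± 0.21 in CD2 (0.0113). Unc5d also rose with Pou3f1+Lhx3, Pou3f1+Hoxc6 and Pou3f1+Hoxa5 (1.64, 1.44 and 0.83), and Unc5b fell there (-1.58, -1.22 and -0.77). Counts for the other Pou3f1 lines were 4 higher and 3 lower with Lhx3, 5 and 7 with Hoxc6, 3 and 7 with Hoxa5, and 0 and 2 for the Flag-tagged form. Of all genes 3.94%, 8.98%, 5.92% and 2.44% were called there.

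Robo2, the second Slit receptor, was highest with Hoxc6. It read 11.70 and 11.48 in the 2 Hoxc6 arrays (CD2), against 10.11, 10.36, 10.59 and 10.63 in YFP, and rose 2.33-fold (1.22 ± 0.25, adjusted p = 0.00359), 1 of 8 members where 2.35% of all genes were called. The Hoxc6 arrays formed part of batch 5, which held no YFP array, so the value rests on the batch terms, and without the 6 batch 4 arrays it was 0.49 ± 0.23 (adjusted p = 0.321). Those 6 arrays read Robo2 at 11.07 to 11.47 whatever the line, the H4 parental line included (11.13). Like those 6, the Hoxc6 arrays read Hoxa5 high, at 11.80 and 12.07, and so did the Pou3f1+Hoxc6 arrays, at 12.09 and 12.14. The part of Hoxa5 in the Robo2 values was not tested. In CD14 cells, with YFP in the same batch, Robo2 read 11.12 and 11.22 with Pou3f1+Hoxc6, against 10.48 and 10.68, and rose by 0.59 ± 0.18 (0.0333). There it was 1 of 4 members called, beside 8.98% of all genes. Over Pou3f1 alone, which read 10.61 and 10.62, the difference was 0.56 ± 0.18 (0.0494), the 1 member called where 8.97% of all genes were. Both CD14 calls were lost when any 1 array of the 2 groups in batch 6 was left out (adjusted p up to 0.296) and with no batch terms (0.168 against YFP and 0.272 against Pou3f1), and the second also with the replicate block (0.0559) and without batch 0 (0.0549). With Pou3f1+Hoxa5 Robo2 read 10.67 and 10.65. In the order of group means Pou3f1+Hoxc6 came 0.42 below Hoxc6 and Pou3f1+Lhx3 0.23 below that, both more than the larger SD of the neighbours. These means carry no batch or reporter term. The lines come from batches 5 (CD2), 6 and 7 (both CD14), so the gaps mix line with batch and, for the first, with reporter.

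Nrp1, a semaphorin receptor gene on the pathway list, rose in both Hoxc6 lines, by 1.31 ± 0.29 with Hoxc6 and 1.05 ± 0.21 with Pou3f1+Hoxc6 (adjusted p = 0.00739 and 0.00078). In Hoxc6 3 of the 44 pathway genes were higher and 1 lower, where 2.35% of all genes were called. Unc5d was among the 3, higher by 1.31 ± 0.28 with Hoxc6 and no Pou3f1 (limma adjusted p = 0.00569), a value that also rests on the batch terms.

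Over the 66 arrays the genes most like Robo2 were Gdap10 (r = 0.814) and the microRNA genes Mir99a and Mirlet7c-1 (0.809 each). Within CD2 arrays r was 0.760 to 0.770, and within CD14 arrays 0.161 to 0.318. Robo2 was lower in NERT (30), at 10.06 and 10.08, against 10.78 and 10.60 in YFP arrays of the batch, and these were the lowest 2 values of all 68 arrays. Notch1 ICD (30) read it at 10.11 and 10.20, against 10.59 and 10.63, and the fit gave -0.38 ± 0.17 (adjusted p = 0.232).

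Slit1 and Ntn1 fell with Pou3f1 in CD2 cells, and both varied widely among control arrays. Slit1, a Slit of floor plate and ventral cord, read 10.23, 9.91, 10.28 and 10.02 with Pou3f1, against 10.77, 11.92, 11.55 and 11.60 in the 4 YFP arrays. Ntn1, which encodes the netrin of floor plate and progenitors, read 9.36, 9.26, 10.08 and 9.79 with Pou3f1, against 9.66, 11.51, 10.42 and 11.57 in YFP. All 4 Slit1 values lay below the YFP arrays, and the Ntn1 values overlapped with the lowest YFP array. Slit1 was lower by 2.15-fold (-1.10 ± 0.26, adjusted p = 0.0139) and Ntn1 by 2.22-fold (-1.15 ± 0.32, 0.0444). Within batch 1 the differences were -0.542 for Slit1 and -0.297 for Ntn1, and within batch 2 they were -2.004 and -2.249. The batch 2 differences were not particular to Pou3f1. All other induced lines of batch 2 also read below its YFP array, Slit1 at 10.22 (Hey1) to 11.08 (Klf6) and Ntn1 at 9.26 (Hey1) to 10.55 (Klf6). The H4 parental array of that batch read above it. The Slit1 call was lost without the batch 2 array of either group (adjusted p up to 0.178) and with arrays of the same reporter only (0.0911). The Ntn1 call was lost with arrays of the same reporter only (0.191), without batch 0 (0.0521) and without any 1 of 5 arrays, 3 of Pou3f1 (batches 1, 2 and 4) and 2 of YFP (batches 2 and 3) (up to 0.348).

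In CD14 cells Slit1 read 10.21 and 10.30 with Pou3f1, against 10.67 and 10.26 in YFP arrays of the batch, and Ntn1 read 9.63 and 9.80, against 9.96 and 9.78. The fit gave -0.21 ± 0.33 for Slit1 and -0.16 ± 0.40 for Ntn1 (adjusted p = 0.949 and 0.982), and the CD14 effect minus the CD2 effect was 0.89 ± 0.42 and 0.99 ± 0.51 (0.817 for both). The CD14 YFP arrays of batch 7 were higher than those of batch 6, at 11.28 and 11.34 for Slit1 and 11.30 and 11.46 for Ntn1. The H4 parental line read Slit1 at 12.62 and Ntn1 at 12.20 in batch 2, the highest values of either gene over the 68 arrays, and 10.92 and 10.65 in batch 4.

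The lowest values came from 3 other Pou3f1 lines of batch 6. Ntn1 read 8.59 and 8.66 with Pou3f1+Hoxc6, 8.73 and 8.69 with Pou3f1+Hoxa5 and 8.87 and 9.71 with Flag-tagged Pou3f1, against 9.96 and 9.78 in YFP arrays of the batch. Slit1 read 9.81 and 9.79, 9.69 and 9.51, and 9.65 and 9.47 in these lines, against 10.67 and 10.26. Both genes lay below the YFP arrays of the batch in all 6 arrays. Ntn1 fell by 1.25 ± 0.40 with Pou3f1+Hoxc6 (adjusted p = 0.0419, up to 0.246 without 1 array) and was at -1.17 ± 0.40 with Pou3f1+Hoxa5 (0.0769), where 0 of 8 members were called by limma beside 5.92% of all genes, and 5 of 8 had an unadjusted p under 0.05, all lower (18.5% of all genes, in either direction). The Ntn1 difference in Pou3f1+Hoxa5 passed in 6 alternatives, among them no batch terms (-1.92, 0.00312), the replicate block (-1.47, 0.0465) and batch 6 alone (0.00547). Slit1 was at -0.66, -0.86 and -0.90 (adjusted p = 0.23, 0.119 and 0.14), and passed in batch 6 arrays fitted alone in all 3 lines (0.00569, 0.00229 and 0.00437).

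Progenitor and floor plate markers were lower in several of these arrays. With Pou3f1 in CD2 the mean of 8 floor plate genes was 8.40 to 8.65, against 8.72 to 9.97 in YFP, and 1 of the 8, Shh, fell (by 1.43 on the log2 scale). The mean of 12 neural progenitor genes was 9.75 to 10.05 there, against 9.96 to 10.41 in CD2 YFP arrays, and 1 of the 12, Nkx2-2, fell. In CD14 cells it was 9.44 to 9.45 with Pou3f1+Hoxc6, 9.41 to 9.54 with Pou3f1+Hoxa5 and 9.31 to 10.20 with Flag-tagged Pou3f1, against 9.86 to 9.93 in the batch 6 YFP arrays. Of the 12, 4, 2 and 1 fell in these 3 lines and 0 rose. Over the deposited values of 66 arrays, with no batch term taken off, this mean correlated with Ntn1 at r = 0.85 (0.41 to 0.98 within the 6 batches of 6 or more arrays). With Slit1 r was 0.77 (-0.48 to 0.96). Mki67, a proliferation gene, read 8.51 and 8.49 with Pou3f1+Hoxc6, against 9.44 and 9.26 in YFP arrays of the batch, while in the second Flag-tagged Pou3f1 array it read 9.76. After the fitted batch terms were taken off, the genes most like Ntn1 were Sulf1 (r = 0.936), itself on the floor plate list, Tram2 (0.913) and Notch2 (0.908). By the same measure Ntn1 was the gene most like Slit1 (0.890), before Fndc3b (0.874) and Apela (0.872). The part of progenitor or floor plate cells in the sorted cultures in these differences was not tested.

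**Figure D4:**
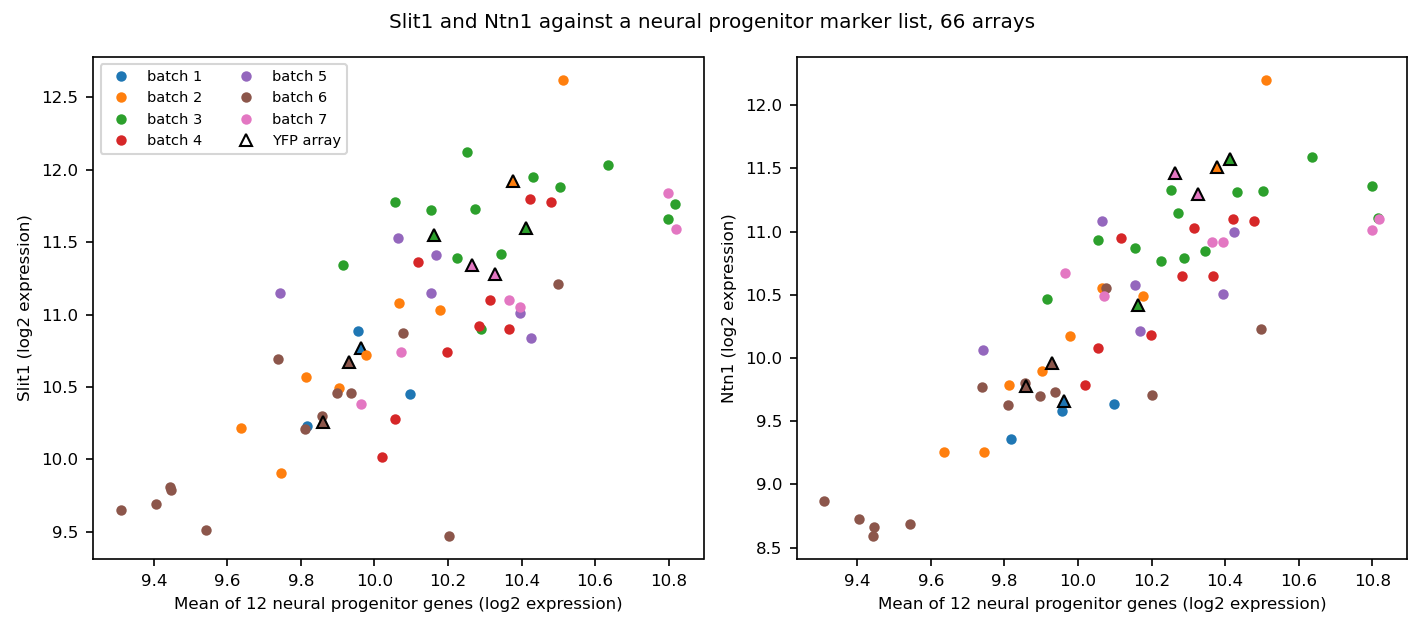
Log2 expression of Slit1 (left) and Ntn1 (right) in 66 arrays against the mean of 12 neural progenitor genes in the same array, coloured by batch, with YFP arrays as outlined triangles. Both genes run from low to high along the marker mean (r = 0.77 and 0.85), and the YFP triangles are spread along the same path.

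Dcc, the receptor through which netrin attracts, rose in 1 line and fell in 3. Its 26 fitted differences ran from -0.57 to 0.48. With Pou3f1 in CD2 it read 12.48, 12.49, 12.24 and 12.32, against 12.16, 11.84, 12.34 and 11.98 in YFP, and rose by 0.48 ± 0.11 (adjusted p = 0.0103). The groups overlapped, 4 settings ended the call, and so did leaving out the batch 2 YFP array (0.14). In CD14 cells Dcc read 11.84 and 11.89 with Pou3f1, against 11.98 and 11.98 in the YFP arrays of the batch, and the effect was -0.11 ± 0.14 (0.921). The CD14 effect minus the CD2 effect was -0.60 ± 0.18 (0.817).

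Dcc was lower in 3 CD14 lines. It read 11.52 and 11.31 with Flag-tagged Pou3f1 and 11.51 and 11.46 with Pou3f1+Hoxc6, against 11.98 and 11.98 in YFP, and 11.14 and 11.26 with NERT (30), against 11.75 and 11.63. It fell by 0.57 ± 0.14 with Flag-tagged Pou3f1 (adjusted p = 0.02), the 1 member called beside 2.44% of all genes, and by 0.49 ± 0.14 with Pou3f1+Hoxc6 (0.0177) and with NERT (30). Each of these calls was lost when any 1 array of the line or of the YFP arrays of its batch was left out (adjusted p up to 0.287). With Pou3f1+Hoxa5 Dcc read 11.71 and 11.50 (-0.38 ± 0.14, 0.104, and 0.0356 in batch 6 alone). Malat1, a nuclear noncoding RNA chosen after its values were seen, read 11.96 to 12.25 in the 6 arrays of Flag-tagged Pou3f1, Pou3f1+Hoxa5 and Pou3f1+Hoxc6, against 10.57 and 10.91 in the batch 6 YFP arrays and 10.67 and 10.36 in the Pou3f1 arrays, and its part in the Dcc, Ntn1 and Slit1 values there was not tested. The genes most like Dcc were Rimbp2 (r = 0.826), Clvs1 and Cox10 (0.800 each).

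**Figure D5:**
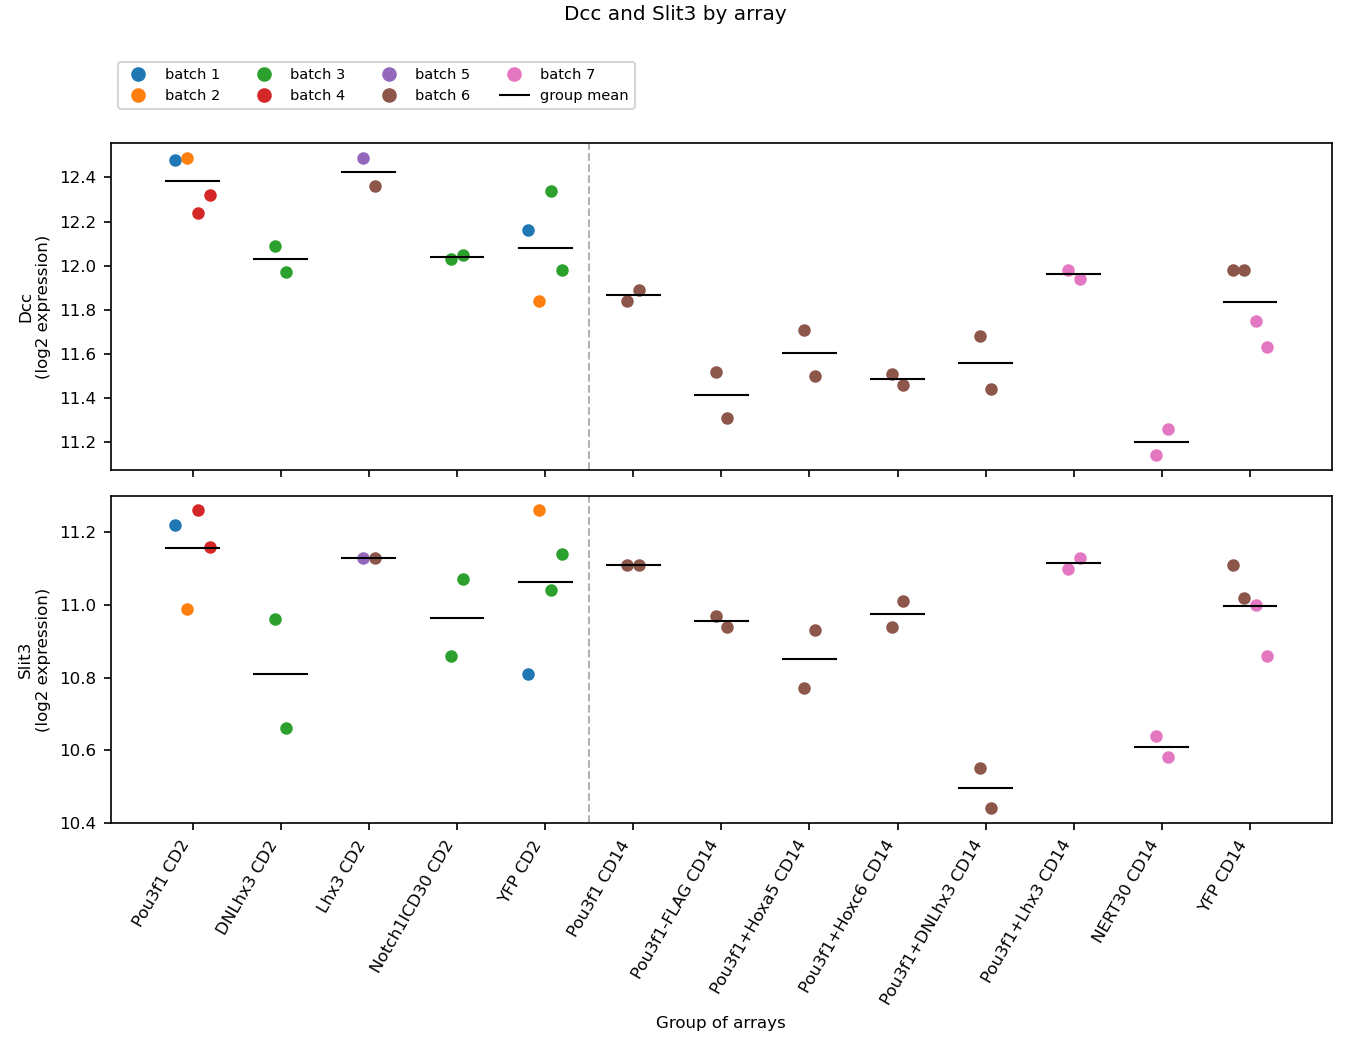
Log2 expression of Dcc (top) and Slit3 (bottom) in each array (dots, coloured by batch) with group means (bars), CD2 lines left and CD14 lines right of the dashed line. The NERT (30) dots are lowest for Dcc (11.14 and 11.26), and the Pou3f1+DNLhx3 dots are lowest for Slit3 (10.55 and 10.44).

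Ordered by mean level over the 31 groups, most neighbours did not differ beyond their spread. These means carry no batch or reporter term, so a gap between groups of different batches or reporters is not a difference of lines alone. A gap larger than the larger SD of the neighbours was found at 1 (Ntn1) to 5 (Robo1, Robo2 and Unc5c) of 30 steps. Slit2 had its 2 lowest groups set apart, Pou3f1+DNLhx3 at 10.90 ± 0.27 and DNLhx3 at 11.72 ± 0.01 (SD, n = 2 each), while NERT (30) and Notch1 ICD (30), at 12.16 and 12.19, did not differ beyond spread, and its highest, Hoxc6 at 13.09 ± 0.03 and Chd5 at 13.02 ± 0.19, did not differ beyond spread. Unc5c was lowest in Pou3f1+DNLhx3, DNLhx3 and NERT (30), at 9.14 ± 0.47, 9.53 ± 0.31 and 10.28 ± 0.03, of which the 2 lowest did not differ beyond spread. Robo1 was highest with Pou3f1 in CD2 (12.41 ± 0.03, n = 4), then Pou3f1+Lhx3 (12.18 ± 0.07) and Lhx3 (12.11 ± 0.12, n = 2 each). Slit3 had the narrowest range over all arrays, 0.93, and Ntn1 the widest, 3.61. The 2 induced E3 arrays of batch 0, whose gene median was 7.81 to 7.82 where the other arrays had 8.15 to 8.38, read Slit2 at 12.65 and 12.66 and Unc5c at 11.26 and 11.32.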

How the data were processed

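Gene arrays of 68 samples of sorted stem cell-derived motor neurons were used. The authors deposited log2 expression values per transcript cluster, which the submitters' processing notes credit to RMA as run by oligo. No version or genome build was stated in the labels or file headers. Of 35556 clusters, 21789 carried 1 gene symbol in the platform annotation, 1621 several and 12146 none, and clusters with 1 symbol gave 19938 genes, with the cluster of highest mean kept for each. limma 3.58.1 in R 4.3.3 was fitted to all 68 arrays with terms for group and batch (37 columns, 31 residual degrees of freedom), tested on simulated data first. Each line was compared with YFP of its reporter, and 10 pairs of lines and the Pou3f1 effect between reporters were also tested, with Benjamini-Hochberg adjustment over 19938 genes and a threshold of 0.05. No filter on dim clusters was applied. The number of arrays limits the precision. Named genes were the 8 members, up to 4 called pathway genes of largest change per comparison, and the 3 genes of highest correlation with each member. The members and lists were chosen with earlier results of these data known. Alternatives left out batch terms, arrays or batches, restricted arrays to 1 reporter or batch, normalized once more, filtered dim clusters, averaged clusters, used a trend or a replicate block.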

Additional observations from a re-analysis of the deposited data

How the results depend on the processing

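The 25 calls against YFP compare with 24 in all with no batch terms (19 of the 25 shared), 37 with arrays of the same reporter only (21 shared), 27 after a second quantile normalization (24 shared), 27 without the 6 batch 4 arrays (22 shared), 26 without batch 4 (22 shared) and 23 without batch 0 (23 shared). A dim-cluster filter, a variance trend and averaged clusters gave 25 each. No called difference turned its sign. In the 13 lines with 2 YFP arrays in their own batch, arrays of 1 batch alone gave 30 calls, against 19 (19 shared). Line-against-line calls were 35 with arrays of the same reporter only, against 14. With arrays of the same reporter only, the 16 calls gained against YFP were all in CD14 lines, and the 4 lost were all in CD2 lines. Ntn1 in Pou3f1+Hoxa5, for instance, kept its difference of -1.17 in that fit, with an SE of 0.17 that was smaller than in the main fit. These fits also hold fewer arrays, and the cause was not tested. Leaving out 1 of 66 arrays in turn gave 16 to 29 calls against YFP and 11 to 17 between lines, and 0 for the parental and reporter comparisons. With a replicate block there were 24 calls against YFP (23 shared) and 12 between lines. Same-numbered arrays mostly did not deviate together (29 group pairs, r from -0.172 to 0.565, 10 over 0.1). In batch 3 some did, Btbd3 with Vwc2 (0.565) and with Tox (0.352), Notch1 ICD (30) with YFP (0.284) and Tox with Vwc2 (0.273). These values do not settle whether the numbers pair samples in that batch. Most lines have 2 arrays, and a call lost without 1 array leaves its line or control with fewer, assumed to vary like the other groups.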
